A study of Homo sapiens with 3 samples.

Results

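The 10 genes described here encode the core of human polyamine metabolism, namely the synthesis enzymes *ODC1*, *AMD1*, *SRM* and *SMS*, the catabolic enzymes *SAT1*, *SMOX* and *PAOX*, and the antizyme system of *OAZ1*, *OAZ2* and *AZIN1*. They were chosen by symbol, and all 10 were found among the 23131 gene rows of the deposited expression table. The table covers HCT-116, a colon carcinoma line that the labels give as APC wild-type and CTNNB1ΔSer45. A form of β-catenin that resists degradation is therefore present in every library, controls included. One culture condition received a pool of anti-APC siRNA on consecutive days. The control is labelled untransfected in its title and as treated with transfection reagent only in its treatment field. Another library, from cells given pooled scrambled siRNA, was not analysed here, so an effect of siRNA delivery cannot be told apart from an effect of *APC* silencing. RNA was collected 48 hours after the second transfection. There was 1 library for each condition, so no difference below has a replicate check and no *p*-value is given.

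Polyamines are small positively charged metabolites that bind nucleic acids and are needed for growth. Ornithine is decarboxylated to putrescine by *ODC1*, and aminopropyl groups made by *AMD1* are added by *SRM* and *SMS* to give spermidine and spermine. Antizymes bind ODC and send it to the proteasome, antizyme inhibitor competes for the antizymes, and *SAT1* marks polyamines for export or oxidation. *ODC1* is a textbook transcriptional target of MYC, and loss of *APC* in the intestine is known to go with high ODC activity.

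Expression is given as FPKM, the fragments per kilobase of transcript relative to a library's total, as the authors deposited it. Ratios are anti-APC siRNA over untransfected and are given on the log2 scale, without a pseudocount. The file lists no counts. Among 819 genes below 0.05 FPKM with a row alone at their locus, the ratio fell on steps. At the commonest step, shared by 225 genes, 1 read was worth 0.13 more on the log2 scale in the anti-APC library. With transcript lengths from the annotation the estimated depth was 25000000 reads without siRNA and 22800000 with it. The 95% interval given after each ratio is an exact Clopper-Pearson interval on reads estimated in this way. It covers counting error only, and the spread between cultures is unknown. Over the 12063 genes with a mean of at least 1 FPKM and a value above 0 in both libraries, the log2 ratio had a median of -0.05. The *APC* transcript was at 3.43 FPKM in the anti-APC library and 9.15 FPKM in the untransfected library, a log2 ratio of -1.41 (95% counting interval -1.53 to -1.30). *AXIN2*, a negative-feedback target of WNT signaling, was at 28.7 FPKM against 4.11 FPKM.

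Of the epithelial markers, *EPCAM*, *CDH1*, *KRT8*, *KRT18* and *KRT19* were present in both libraries and *VIL1* was near 0, at 0.0313 FPKM with anti-APC siRNA and listed at 0 without. The summed level of the 6 markers was 1287 FPKM in the anti-APC library and 1642 FPKM in the untransfected library. All 5 expressed markers were lower in the anti-APC library, with log2 ratios from -0.65 to -0.15, and their part in the results below was not tested. In bulk RNA, fewer cells with a transcript and less of it per cell cannot be told apart. Among the blood, endothelial and fibroblast markers, *COL1A1* was at 3.08 FPKM and 2.85 FPKM, and the others were below 0.03 FPKM in both libraries.

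Promoter sequences are shown for *ODC1* and *SRM*, whose windows held the E-box bound by MYC and MAX, for *SAT1*, which had the highest ratio of the 10 genes, and for *OAZ2*, which had the lowest ratio of the members with at least 1 FPKM. They are RefSeq sequences on GRCh38.p14, from a table of windows running from 250 bases before to 50 after each transcript start. From that table, 10 windows were used, for 7 of the 10 genes. No window was used for *SMOX*, *PAOX* and *AZIN1*, which are named only. Each stretch is written 5′ to 3′ on the strand of its gene. Capitals mark CACGTG (the E-box) in *ODC1* and *SRM* and TGAGTCA (the AP-1 motif TGACTCA on the other strand) in *OAZ2*. The paper gives CACGTG as the binding motif of the USF transcription factors. Whether MYC, MAX or USF binds these sites was not tested.
ODC1, downstream start, minus strand, chr2:10447988-10448062: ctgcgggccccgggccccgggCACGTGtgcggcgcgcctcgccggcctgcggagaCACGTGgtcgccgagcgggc
SRM, minus strand, chr1:11060019-11060268: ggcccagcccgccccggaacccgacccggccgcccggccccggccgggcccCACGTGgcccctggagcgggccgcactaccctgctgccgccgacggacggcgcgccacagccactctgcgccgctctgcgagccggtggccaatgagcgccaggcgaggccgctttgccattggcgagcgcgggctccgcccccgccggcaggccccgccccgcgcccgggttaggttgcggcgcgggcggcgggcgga
SAT1, plus strand, chrX:23782923-23783172: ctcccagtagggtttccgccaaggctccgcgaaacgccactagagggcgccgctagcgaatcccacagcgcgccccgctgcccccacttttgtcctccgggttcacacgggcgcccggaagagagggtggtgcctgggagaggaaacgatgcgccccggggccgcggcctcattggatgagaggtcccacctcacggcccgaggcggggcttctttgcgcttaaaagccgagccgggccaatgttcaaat
OAZ2, minus strand, chr15:64703282-64703531: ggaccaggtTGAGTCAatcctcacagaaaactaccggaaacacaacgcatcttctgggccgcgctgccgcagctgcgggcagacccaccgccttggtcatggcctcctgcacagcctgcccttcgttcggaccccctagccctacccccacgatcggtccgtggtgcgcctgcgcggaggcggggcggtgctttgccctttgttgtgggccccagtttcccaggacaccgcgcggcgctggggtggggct

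*ODC1* has windows for 2 starts, which lie 315 bases apart. The window of the upstream start held no E-box. The window of the downstream start held 2, beginning 29 bases before and 5 bases after that start. Counted from the upstream start they lie 286 and 320 bases downstream. The E-box of *SRM* begins 199 bases before its start. The E-box was found in 7.26% of all 35116 windows, and 0.664% held 2 or more. The printed stretches of *ODC1* and *SRM* were 84% and 82% G or C. Shares over all windows, here and below, take no account of base composition. The AP-1 motif was found in 1 of the 10 windows used for these genes, that of *OAZ2*, and in 4.95% of all windows. Of the TCF7L2 motif, the forms CTTTGAA and CTTTGAT were searched on either strand. They were in none of the 10 windows and in 6.86% of all windows. The wider motif given in the paper, WWCAAAG with W for A or T, was not searched. The printed stretch of *OAZ2* holds ctttgtt, which matches that wider motif on the other strand. The SP1 box GGGCGG, searched on either strand, was in 9 of the 10 windows, *SAT1* being the exception, and in 45.0% of all windows. Counted by gene, it was in 6 of 7. Some windows of *AMD1* overlap and hold the same site. Sites of different motifs did not overlap in these windows, and a match is a description of letters, not of a bound site.

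Among the 4 synthesis genes, none was past 1.5-fold, and *ODC1* had the highest ratio. All 4 ratios were above 0, while 58.6% of all genes had a ratio below 0. That share is not the one at their level. The median log2 ratio of all genes was -0.13 between 1 and 10 FPKM and -0.02 between 10 and 100 FPKM. It was 0.02 for genes of at least 100 FPKM, which include *ODC1*, *SRM* and *SMS*. *ODC1*, the first and rate-limiting enzyme, lies on chromosome 2 of GRCh37 from 10580094 to 10588453 on the minus strand. It was at 641 FPKM in the anti-APC library and 441 FPKM in the untransfected library. This is 1.45-fold, a log2 ratio of 0.54 (95% counting interval 0.52 to 0.56). *ODC1* was the most abundant of the 10 genes in both libraries, and ranked 155 among all rows with anti-APC siRNA and 215 without. Of the 995 genes with a mean of at least 100 FPKM, 46 (4.62%) had a ratio at least as high. Its intron holds the small nucleolar RNA gene *SNORA80B*, which has a row at the same locus with 33.5 FPKM without siRNA and is listed at 0 with it. The division of reads between these rows was not tested.

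*AMD1* encodes S-adenosylmethionine decarboxylase, which supplies the aminopropyl group for both later steps. It lies on chromosome 6 from 111195973 to 111220082 and was at 87.9 FPKM in the anti-APC library and 73.1 FPKM in the untransfected library. The log2 ratio was 0.26 (95% counting interval 0.22 to 0.31), or 1.20-fold, and 521 of the 6123 genes between 10 and 100 FPKM (8.51%) had one at least as high. *SRM*, spermidine synthase, lies on chromosome 1 from 11114641 to 11120077 and was at 134 FPKM and 122 FPKM, a log2 ratio of 0.13 (95% counting interval 0.07 to 0.20). *SMS*, spermine synthase, lies on chromosome X from 21958827 to 22012955 and was at 133 FPKM and 127 FPKM, a log2 ratio of 0.07 (95% counting interval 0.01 to 0.12). For these last 2 enzymes the difference was small, and 24.1% and 36.3% of the genes of at least 100 FPKM had a ratio at least as high as theirs. The annotation names processed copies of *AMD1*, *SRM*, *SMS* and *OAZ1*, none of which has a row in the table, so reads could have been split with copies that were not counted.

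**Figure D1:**
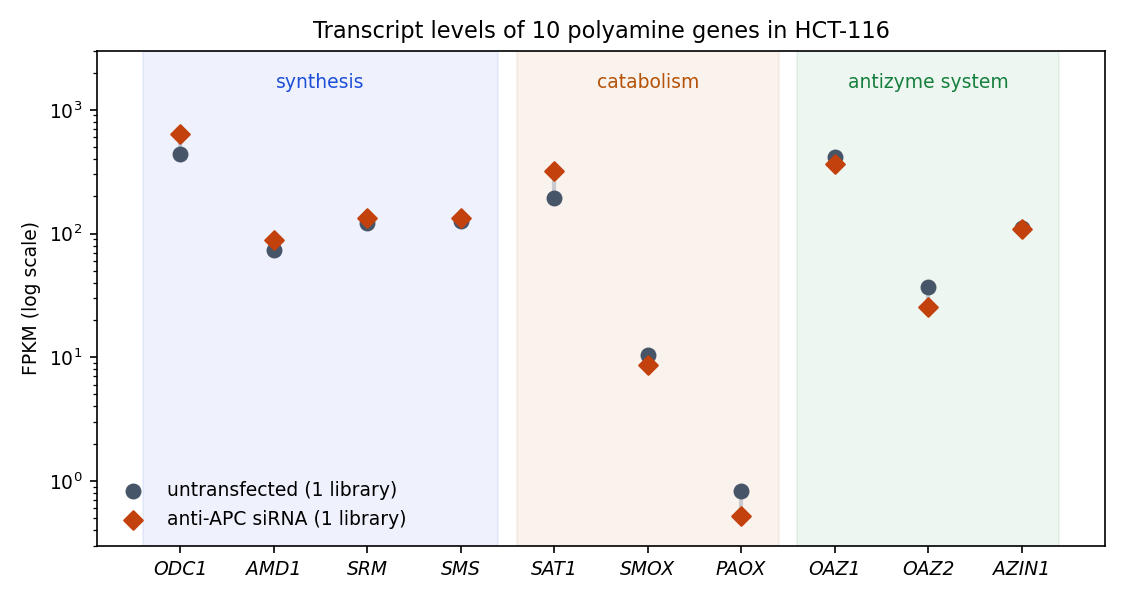
FPKM on a log scale of the 10 polyamine genes, grouped by role, in the untransfected library (circles) and the anti-APC siRNA library (diamonds), with 1 library for each condition and no error bars. *ODC1* and *SAT1* show the widest gaps upward, to 641 and 323 FPKM, and *OAZ2* and *PAOX* the widest gaps downward, to 25.7 and 0.519 FPKM.

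The catabolic genes did not move together. *SAT1* encodes the acetyltransferase that starts polyamine breakdown and export, and lies on chromosome X from 23801290 to 23804327 on the plus strand. It was at 323 FPKM in the anti-APC library and 194 FPKM in the untransfected library, a 1.66-fold difference. Its log2 ratio of 0.73 (95% counting interval 0.68 to 0.79) was the highest of the 10 genes. Only 28 of the 995 genes of at least 100 FPKM (2.81%) had a ratio as high or higher. It passed 1.5-fold, and no other member with a mean of at least 1 FPKM did so. *SAT1* ranked after *ODC1* and *OAZ1* in abundance among the members in both libraries.

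*SMOX*, the oxidase that converts spermine directly to spermidine, lies on chromosome 20 from 4101627 to 4168394. It was at 8.62 FPKM in the anti-APC library and 10.5 FPKM in the untransfected library, a log2 ratio of -0.28 (95% counting interval -0.47 to -0.10). Among the 4945 genes between 1 and 10 FPKM, 32.6% had a ratio as low or lower. *PAOX*, the peroxisomal oxidase that acts on acetylated polyamines, lies on chromosome 10 from 135192765 to 135205198. It was the lowest of the 10 genes at 0.519 FPKM in the anti-APC library and 0.829 FPKM in the untransfected library, under the minimum mean of 1 FPKM. These levels correspond to about 22 and 38 reads. The log2 ratio of -0.67 had a 95% counting interval of -1.48 to 0.14, so a difference in *PAOX* was not detectable at this depth.

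In the antizyme system none of the 3 genes was past 1.5-fold. Their ratios were below 0, as for 58.6% of all genes, and *OAZ2* had the lowest. For genes of at least 100 FPKM, which include *OAZ1* and *AZIN1*, the median log2 ratio was 0.02. *OAZ1*, the main antizyme, whose translation needs a programmed frameshift that polyamines promote, lies on chromosome 19 from 2269508 to 2273489. It was at 362 FPKM in the anti-APC library and 419 FPKM in the untransfected library, a log2 ratio of -0.21 (95% counting interval -0.25 to -0.17), and 16.2% of the genes of at least 100 FPKM were as low or lower. *OAZ1* was the second most abundant member in both libraries, and its start overlaps that of *JSRP1* on the opposite strand, and whether reads were counted by strand is not given in the sources used here. *OAZ2*, a second antizyme, lies on chromosome 15 from 64979772 to 64995480. It was at 25.7 FPKM and 36.8 FPKM, a level 1.43-fold lower with anti-APC siRNA. The log2 ratio of *OAZ2* was -0.52 (95% counting interval -0.63 to -0.41), and 251 of the 6123 genes between 10 and 100 FPKM (4.10%) had one as low or lower. *AZIN1*, the antizyme inhibitor that resembles ODC but lacks its activity, lies on chromosome 8 from 103838339 to 103906092. It was at 108 FPKM and 111 FPKM, a log2 ratio of -0.04 (95% counting interval -0.08 to -0.01). This was the smallest difference among the 10, and subtracting the median of all genes turned it to 0.01.

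**Figure D2:**
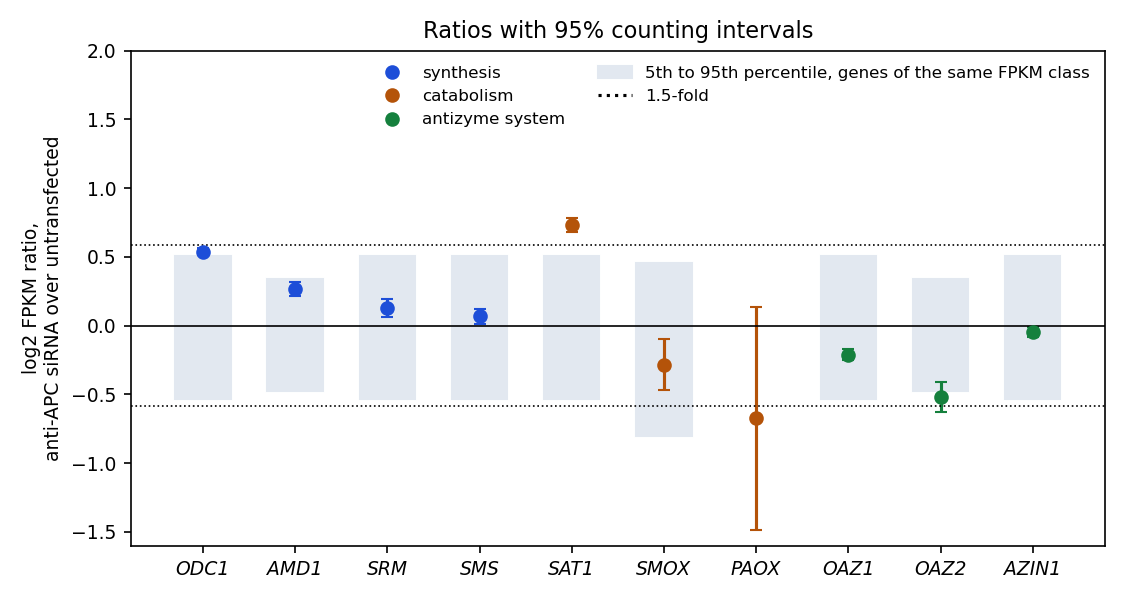
Log2 FPKM ratio of anti-APC siRNA over untransfected for the 10 genes, with bars for the 95% counting interval, grey boxes for the 5th to 95th percentile of all genes in the same FPKM class, and dotted lines at 1.5-fold. *SAT1* and *ODC1* lie above their boxes and *OAZ2* lies below its box, while the interval of *PAOX*, which has no box because it is under 1 FPKM, runs from -1.48 to 0.14.

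The 5th to 95th percentile of the log2 ratio ran from -0.53 to 0.50 for genes of at least 100 FPKM, from -0.48 to 0.34 for those between 10 and 100 FPKM, and from -0.80 to 0.45 for those between 1 and 10 FPKM. *ODC1* and *SAT1* were above, and *OAZ2* was below, the range of their class. The other 6 members with at least 1 FPKM were within it.

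Levels of these genes within a library can be set against each other without regard to the scaling between libraries. *ODC1* and *OAZ1* were at nearly equal FPKM in the untransfected library, with a ratio of 1.05. In the anti-APC library there were 1.77 FPKM of *ODC1* for each FPKM of *OAZ1*. Against the sum of *OAZ1* and *OAZ2*, the level of *ODC1* was 0.968 without and 1.65 with anti-APC siRNA, a 1.71-fold difference between libraries. The level of *ODC1* relative to *SAT1*, which acts in the opposite direction, moved less, from 2.27 without to 1.98 with anti-APC siRNA. *SAT1* was at 18.5 times the level of *SMOX* without and 37.5 times with anti-APC siRNA. *SRM* and *SMS* were at like levels in both libraries, with ratios of 0.962 and 1.00. The order of the 10 genes by FPKM was the same in both libraries apart from *SRM* and *SMS*, which changed places.

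The summed FPKM of the 10 genes was 1823 with anti-APC siRNA and 1536 without. *ODC1* made up 35.1% of this sum with and 28.7% without anti-APC siRNA, and *SAT1* 17.7% and 12.6%. The share of *OAZ1* was 19.8% with and 27.3% without. Summed by role, the synthesis genes were at 996 FPKM with and 763 FPKM without, and the catabolic genes at 332 FPKM with and 205 FPKM without. The antizyme system was at 495 FPKM with and 567 FPKM without. Most of each sum came from a single gene, *ODC1*, *SAT1* and *OAZ1* in turn.

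With a mean of at least 1 FPKM in 9 of the 10 genes, 1 was at least 1.5-fold higher with anti-APC siRNA (*SAT1*) and none was at least 1.5-fold lower. Over all 12063 genes, 2.56% were at least 1.5-fold higher and 6.61% at least 1.5-fold lower, 9.17% in either direction. The member nearest to the threshold from below was *ODC1*, at 1.45-fold, followed by *OAZ2*, at 1.43-fold lower. At a threshold of 1.3-fold, *ODC1*, *SAT1* and *OAZ2* passed, 2 higher and 1 lower, where 5.36% and 14.7% of all genes passed in those directions. When the median of all genes was subtracted, *ODC1* reached 1.51-fold and passed, which made 2 members higher. For genes of at least 100 FPKM, the class of *ODC1*, the median was 0.02. Subtracting that one would lower the ratio of *ODC1* instead. The median log2 ratio of the 9 genes was 0.07, against -0.05 for all genes. Of the 9, 5 had a ratio above 0 and 4 below, whereas 58.6% of all genes were below 0. These contrasts take no account of level. The median of all genes ran from -0.13 between 1 and 10 FPKM to 0.02 at 100 FPKM and above.

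**Figure D3:**
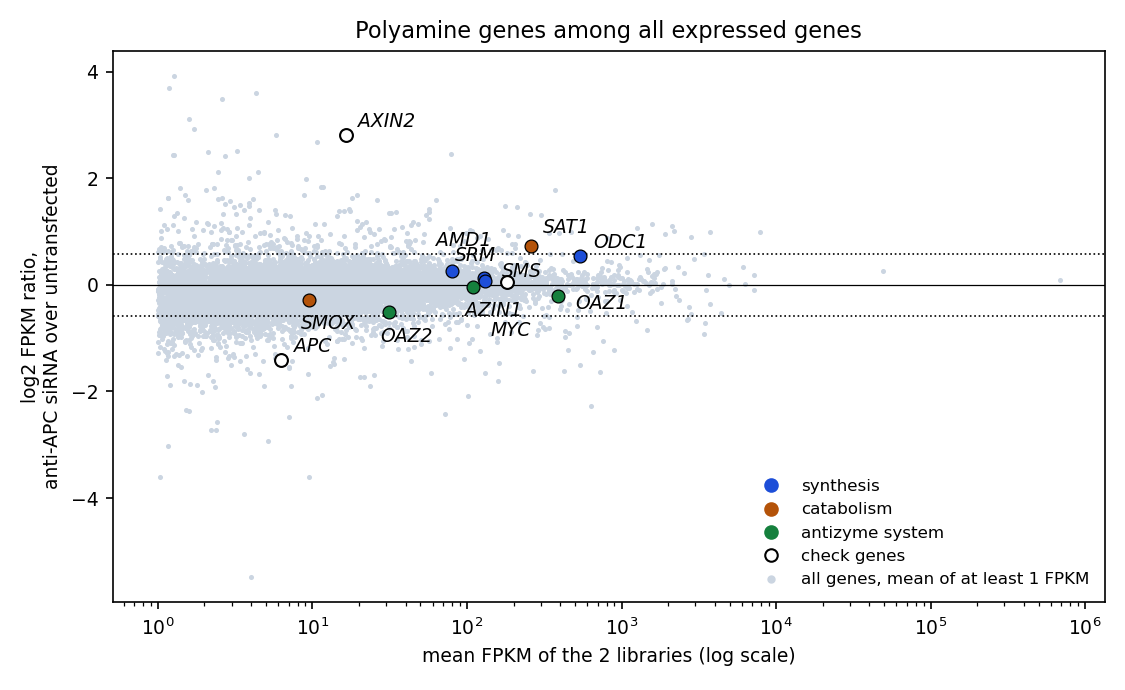
Log2 FPKM ratio of anti-APC siRNA over untransfected against the mean FPKM of the 2 libraries (log scale) for 12063 genes (grey), with the 9 polyamine genes of at least 1 FPKM coloured by role, *APC*, *AXIN2* and *MYC* as open circles, and dotted lines at 1.5-fold. *SAT1* lies above the upper line and *ODC1* just under it, *OAZ2* just above the lower line, and *MYC* near 0.

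MYC, the transcription factor through which *APC* loss is held to raise *ODC1*, was at 185 FPKM in the anti-APC library and 178 FPKM in the untransfected library, a log2 ratio of 0.06 (95% counting interval 0.03 to 0.09). Its partner *MAX* was at 36.7 FPKM and 33.3 FPKM. Of 16 textbook MYC targets other than *ODC1*, 14 had a mean of at least 1 FPKM. None of the 14 was past 1.5-fold in either direction, where 9.17% of all genes were, and a list of this size is not set apart by that count. Their log2 ratios ran from -0.18 for *LDHA* to 0.34 for *EIF4E*, with a median of 0.03. *CCND2* was near 0, and *SHMT2* is listed at 0 in both libraries, in a row that the authors' program marked as failed. *CTNNB1*, which encodes β-catenin, was at 178 FPKM and 177 FPKM.

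A further 33 genes of polyamine supply, use and transport were looked up, 3 of them under older symbols. A mean of at least 1 FPKM was found for 25, and their median log2 ratio was 0.01. Of the 25, 13 had a ratio above 0 and 12 below. Only *AZIN2*, the second antizyme inhibitor, was past 1.5-fold, so that 1 of 25 passed where 9.17% of all genes did, 6.61% being lower. This count does not exceed the background. Between 1 and 10 FPKM, the class of *AZIN2*, 570 of 4945 genes were at least 1.5-fold lower. *AZIN2* was at 0.862 FPKM in the anti-APC library and 1.54 FPKM in the untransfected library, a log2 ratio of -0.83 (95% counting interval -1.19 to -0.48), at about 103 and 201 reads. With a pseudocount of 1 FPKM *AZIN2* no longer passed.

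In the supply of ornithine and S-adenosylmethionine, *ARG2*, the mitochondrial arginase that makes ornithine, had the highest log2 ratio, 0.51 (95% counting interval 0.33 to 0.69). It was at 13.3 FPKM in the anti-APC library and 9.32 FPKM in the untransfected library, 1.43-fold. *ARG2*, like *MAT2A*, *DHPS*, *GPC1*, *OAZ3* and *SAT2* below, shares its locus with other rows. The division of reads between such rows was not tested. *MAT2A*, which makes S-adenosylmethionine, was at 138 FPKM and 165 FPKM, a log2 ratio of -0.26, whereas its regulatory partner *MAT2B* was at 65.6 FPKM and 54.8 FPKM, a log2 ratio of 0.26. *OAT*, which links ornithine to proline and glutamate, was at 87.2 FPKM and 85.5 FPKM. The salvage pathway that recycles the methylthioadenosine left by *SRM* and *SMS* had log2 ratios from -0.40 (*MRI1*) to 0.26 (*ENOPH1*). *MTAP*, which starts this salvage, was at 120 FPKM and 122 FPKM.

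Spermidine is used to make hypusine on the translation factor eIF5A. *EIF5A* was the most abundant gene of the related list at 662 FPKM in the anti-APC library and 652 FPKM in the untransfected library. Its paralog *EIF5A2* was at 7.41 FPKM and 5.89 FPKM, a log2 ratio of 0.33, and the hypusination enzyme *DHPS* was at 27.0 FPKM and 31.3 FPKM, a log2 ratio of -0.22. Among the transport genes, *SLC3A2*, a heavy chain of amino acid exchangers that has been linked to polyamine export, was at 211 FPKM and 177 FPKM, a log2 ratio of 0.26. *ATP13A3*, a polyamine transporting ATPase, was at 72.9 FPKM and 62.2 FPKM, a log2 ratio of 0.23. *GPC1*, the proteoglycan glypican implicated in polyamine uptake, had the lowest log2 ratio of this group, -0.42, at 26.3 FPKM and 35.2 FPKM. *OAZ3*, the testis antizyme, was at 3.56 FPKM and 3.09 FPKM, with a 95% counting interval of -0.30 to 0.69 on the log2 scale. Of the other catabolic genes, *ALDH9A1* was at 40.1 FPKM and 43.8 FPKM, and *SAT2*, the paralog of *SAT1*, was at 20.0 FPKM and 18.2 FPKM. The log2 ratio of *SAT2* was 0.14 (95% counting interval -0.06 to 0.34), against 0.73 for *SAT1*, and these intervals, of counting error alone, do not overlap. *ARG1*, *AGMAT*, *ATP13A4*, *SLC22A2*, *SLC22A3*, *SLC47A1*, *SATL1* and *AOC1* were under the minimum or listed at 0.

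**Figure D4:**
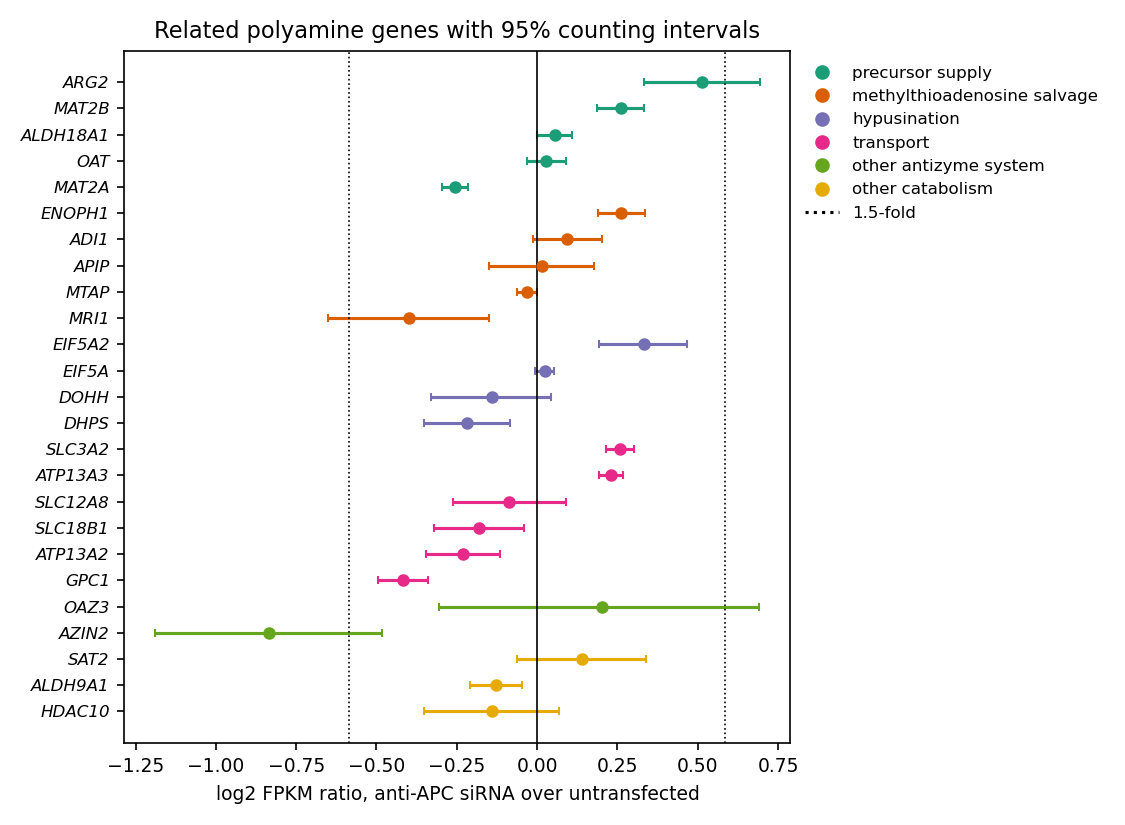
Log2 FPKM ratio of anti-APC siRNA over untransfected for the 25 related genes with a mean of at least 1 FPKM, coloured by function, with bars for the 95% counting interval and dotted lines at 1.5-fold. *ARG2* has the highest ratio, 0.51, and *AZIN2*, at -0.83, is the only point past a dotted line.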

How the data were processed

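Single-read TruSeq libraries of HCT-116 cells were assigned to transcripts by the authors with Cufflinks and compared with Cuffdiff, and the submitters' processing notes name hg19. The aligner, annotation and versions are not given in the sources used here. The deposited values used are FPKM per gene for the anti-APC siRNA and the untransfected library. The table also holds the authors' natural log ratio, test statistic, *p* and *q*, which were not used.

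Log2 ratios were computed without a pseudocount and were not computed where a library is at 0, which left out 134 rows with a mean of at least 1 FPKM. All 269 rows marked FAIL are at 0 in both libraries. With 1 library per condition there is no test, and a gene counts as past a threshold at 1.5-fold with a mean of at least 1 FPKM. Depth was estimated from the values of genes seen in 1 library only, 486 for the untransfected and 508 for the anti-APC library. Only those near the commonest value set it, 211 for the untransfected and 229 for the anti-APC library. The direct estimate for the latter was 23100000 reads, and 22800000 keeps the ratio of the low-value step. Positions and transcript lengths come from GENCODE 44 on GRCh37, and depth moves with those lengths. The depth estimator, the counting interval and the counts were tested on simulated data. Those data were drawn with the same transcript lengths, so the simulation could not show an error in the lengths. Some genes of the lists are not reported here. The 10 genes and all lists were chosen with earlier results of these data known. All members were named, with related genes past 1.5-fold, the most abundant of each function, and check genes. The highest and lowest genes of a list, *MAT2B*, *EIF5A2*, *SHMT2*, *CCND2*, *SNORA80B* and *JSRP1* were added with their values in view. The software was scipy 1.17.1, pandas 2.3.3, numpy 2.4.6 and matplotlib 3.10.9 under Python 3.11.15.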

Additional observations from a re-analysis of the deposited data

How the results depend on the processing

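No paired analysis was possible because each condition has 1 library, and for the same reason no library could be left out. Of the 10 genes, 3 passed at 1.3-fold and 0 at 2-fold, instead of 1 at 1.5-fold. Centring on the median of all genes gave 2 (*ODC1* and *SAT1*), and without the filter on low values the count was also 2 (*PAOX* and *SAT1*). Pseudocounts of 0.1 and 1 FPKM, upper-quartile scaling and a mean of at least 5 FPKM left *SAT1* alone past 1.5-fold. The median log2 ratio of the 9 genes was 0.12 after centring and 0.11 after upper-quartile scaling, and it moved by less than 0.01 with either pseudocount. Of the related genes, 4 passed at 1.3-fold, 0 at 2-fold, 0 with a pseudocount of 1 FPKM, 2 without the filter and 0 with a mean of at least 5 FPKM. The MYC targets stayed at 0 under each of these settings. The share of all genes past the threshold was 20.0% at 1.3-fold, 2.32% at 2-fold, 5.60% with a pseudocount of 1 FPKM, 19.4% without the filter and 5.79% with a mean of at least 5 FPKM. Depth limits *PAOX* and genes under 1 FPKM. For the abundant members the counting intervals are narrow, but they do not cover the spread between cultures or the choice of scaling.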

Other observations

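Genes of arginine and ornithine transport and metabolism, not all of which supply the pathway, were looked up with no test. This was done after the values of the 10 polyamine genes had been seen. Of 13 genes, 8 had a mean of at least 1 FPKM, and 7 of these 8 had a ratio below 0, as did 58.6% of all genes. Their median log2 ratio was -0.30, against -0.05 for all genes. *CPS1*, at -0.01 (95% counting interval -0.11 to 0.09), and *SLC7A1*, at -0.06, were near that median, and 1 of the 8 was past 1.5-fold. *ASS1*, argininosuccinate synthase of the urea cycle, was at 7.59 FPKM in the anti-APC library and 12.5 FPKM in the untransfected library. It was the gene past 1.5-fold, with a log2 ratio of -0.72 (95% counting interval -0.94 to -0.50), as were 6.61% of all genes in that direction. Between 10 and 100 FPKM, the class of *ASS1*, 185 of 6123 genes were at least 1.5-fold lower. The mean of *ASS1*, 10.0 FPKM, lies at the edge of that class. *ASL*, the next enzyme, was at 17.2 FPKM and 22.2 FPKM, and *SLC25A15*, the mitochondrial ornithine carrier, at 17.6 FPKM and 22.8 FPKM. *PYCR1*, which makes proline, had a log2 ratio of -0.30. *SLC7A6*, a cationic amino acid transporter subunit, was the exception at 26.4 FPKM and 22.6 FPKM, while the main arginine importer *SLC7A1* was at 31.8 FPKM and 33.1 FPKM.

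Of 9 methionine cycle genes, 6 had a mean of at least 1 FPKM and none was past 1.5-fold, where 9.17% of all genes were, so the count says nothing about these genes. *MTRR*, methionine synthase reductase, had the highest log2 ratio, 0.39 (95% counting interval 0.30 to 0.48), at 29.7 FPKM in the anti-APC library and 22.7 FPKM in the untransfected library. *AHCY*, which clears S-adenosylhomocysteine, was at 149 FPKM and 179 FPKM, a log2 ratio of -0.26. *SLC7A5*, the light chain that pairs with *SLC3A2*, was at 227 FPKM and 201 FPKM, a log2 ratio of 0.17.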
